A study of Arabidopsis thaliana with 30 samples.

Results

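Transcript levels were compared between hypocotyl explants of the hsfa1abd-2 mutant and of the Col-0 wild type (WT) of Arabidopsis thaliana at 0 h, the time of cutting. The comparison was defined by its labels and holds 6 of the 30 libraries of the study, 3 of hsfa1abd-2 and 3 of WT. All seedlings, mutant and WT, were in the Col-0 ecotype and were raised without light until an age of 7 days on 1x MS medium. Hypocotyls were then cut with a scalpel, and explants of each genotype were collected at 0, 0.5, 1, 3 and 24 h, with 3 biological replicates of about 50 pooled explants per group. The labels describe whole tissue, mark the 0 h explants as wounded like the others, and give neither the nature of the mutant alleles nor the number of lines. No uncut seedlings were analysed here, so a genotype difference before the cut and one that arose on cutting and harvest cannot be told apart. In pooled whole tissue, less RNA per cell and fewer cells that carry it cannot be told apart.

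HSFA1 proteins are class A heat shock transcription factors. In unstressed plants they are held inactive by chaperones, and on heat they are released, bind heat shock elements in promoters and switch on chaperone genes and further heat shock factors. Its name points to HSFA1A, HSFA1B and HSFA1D, close relatives with overlapping roles, as the genes affected in the mutant. The title of the study ties HSFA1 to wounding and cellular reprogramming, and the comparison at 0 h asks how far the genotypes already differed at the start of the time course.

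The deposited table pairs no row with a gene name or identifier. Rows are therefore known by their place in the table, with the first data row as 1, and only 4 rows that differed are numbered. The HSFA1 transcripts could not be looked up, so the genotype labels were not checked against the targeted genes, and heat shock or cell type marker lists could not be read. Total counts at 0 h were 3236360 to 4147590 per library, and 20941 to 21518 rows had a count. At the median depth of the study the filter on low counts set a limit of 2.78 CPM, which are counts scaled to a common library size. Libraries of the same genotype correlated at r = 0.972 to 0.979 in log2 CPM over the tested rows and pairs of unlike genotype at 0.962 to 0.974. The first principal component of these 6 libraries, with 37.2% of the variance, separated the genotypes, since the mutant libraries lay between -29.3 and -16.3 and the WT libraries between 15.8 and 32.2.

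The mutant libraries at 0 h were not alike in a few very abundant rows. Row 22173, singled out after its values were seen, stood at 4339, 48332 and 38061 CPM in mutant replicates 1, 2 and 3, against 4535, 6540 and 3872 CPM in the WT replicates. Mutant 0.5 h replicate 1 and mutant 1 h replicate 1 were also high, at 39289 and 69503 CPM, while the other 26 libraries lay between 3724 and 12960 CPM. Its difference at 0 h was not called (log2 fold 2.60, adjusted p = 0.0868 in edgeR). With 4 further rows that followed it at r above 0.9 over the 30 libraries it held 6.83% and 5.47% of all counts in mutant 0 h replicates 2 and 3, against 0.747% in replicate 1. None of these 5 rows belongs to the called rows described next. The part of this difference between libraries in the results was not tested beyond leaving these rows out, which gave 78 higher calls, 72 of them among the 78 below, and 172 lower calls, all among the 268 below. A like fall also came from leaving out single libraries of later times. Without WT 24 h replicate 2, for example, 232 rows were called in all, and 161 of the 268 lower rows were kept.

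At 0 h the mutant differed from WT in 346 of 18526 tested rows, 1.87% of them, with a call set at an adjusted p of 0.05 (edgeR, quasi-likelihood). In the model of all 30 libraries most called rows were lower in hsfa1abd-2, with 268 lower (1.45% of tested rows) and 78 higher (0.421%). Large differences went about as often up as down, since 45 of the higher rows (0.243%) and 40 of the lower ones (0.216%) differed at least 2-fold. The lower rows were mostly moderate changes of well-expressed transcripts. Their median log2 fold was -0.62 with an interquartile range of -0.82 to -0.50, and their median level was 59.6 CPM in the mutant and 93.5 CPM in WT. The higher rows were fewer and had larger log2 folds, with a median log2 fold of 1.099, an interquartile range of 0.74 to 2.37, and median levels of 18.4 CPM in the mutant and 7.81 CPM in WT. Over all tested rows the median log2 fold was -0.01 and the median levels were 16.9 and 16.8 CPM.

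**Figure D1:**
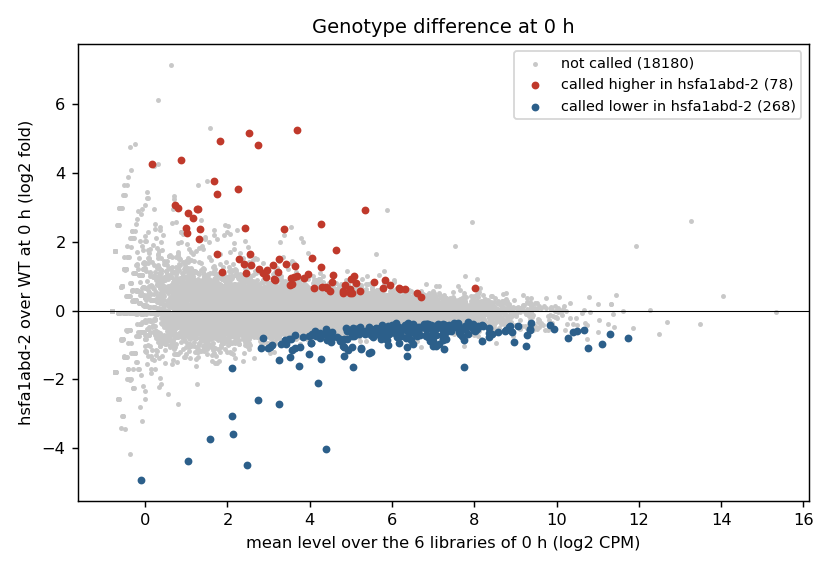
Log2 fold of hsfa1abd-2 over WT at 0 h (vertical axis) against the mean level over the 6 libraries of 0 h in log2 CPM (horizontal axis), 1 point per tested row. The 78 red rows were called higher and reach 5.22, the 268 blue rows were called lower and crowd between -1 and 0 at middle and high levels, and grey rows were not called.

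Replicates of the genotypes did not overlap in 340 of the 346 called rows, 263 of the lower and 77 of the higher ones, against 13.1% lower and 9.79% higher, or 22.9% in all, of the tested rows. The same libraries set the calls, so this describes the called rows and is no further support for them. An unadjusted p under 0.05 was reached by 2710 rows, 14.6% of those tested. At the edge of the call, the last row inside had a log2 fold of 1.13 (adjusted p = 0.0496) and the first outside a log2 fold of -0.45 (adjusted p = 0.05003). The level of a row, taken as its mean CPM over the 24 later libraries, went along with both the direction and the number of calls. Among rows under 10 CPM 11 were lower and 21 higher of 5993, and at 200 CPM or more 31 were lower and 2 higher of 802. The median approximate standard error (SE) of a log2 fold was 0.35 under 10 CPM and 0.13 at 200 CPM or more, and the median size of the called log2 folds was 1.58 and 0.62.

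The number of calls rested on single libraries. It was 279, 74 and 83 without mutant replicates 1, 2 and 3, and 259, 121 and 109 without WT replicates 1, 2 and 3. The lower rows became 44 without mutant replicate 2, and the higher rows became 16 without WT replicate 3. Leaving out 1 library of a later time, which shares the model, also moved the number of calls at 0 h. It lay between 232 without WT 24 h replicate 2 and 462 without mutant 0.5 h replicate 2. Of those calls 30.6% and 33.5% were higher. In the model of the 6 libraries of 0 h alone, 912 rows were called, 436 higher and 476 lower, and 305 of the 346 were among them. Of the calls, 47.8% were higher in the model of 6 against 22.5% in the model of 30, and with the replicate number added as a replicate block to the model of 6 the excess of lower calls turned round, at 320 higher and 297 lower of 617 (51.9% higher). A smaller core of 39 lower and 9 higher rows was called in each of the 6 models that leave out 1 library of 0 h. It holds 19 of the 40 rows that were at least 2-fold lower and 6 of the 45 that were at least 2-fold higher.

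**Figure D2:**
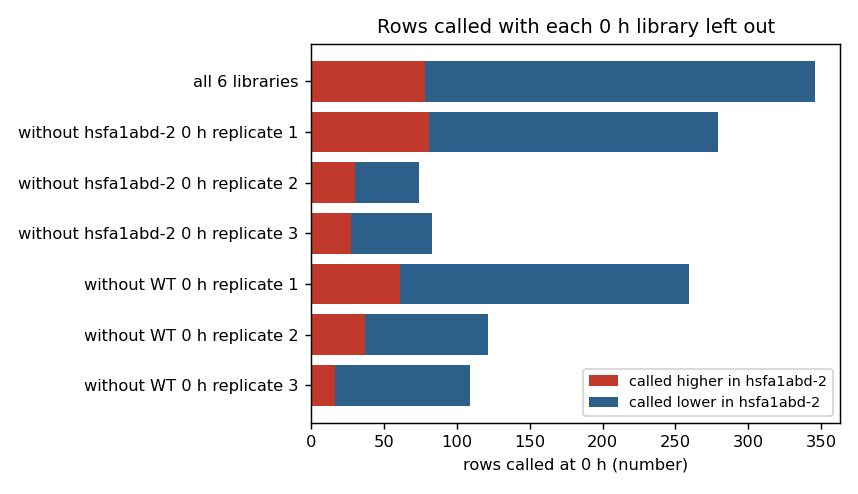
Number of rows called at 0 h (horizontal axis) in the model of all libraries and in models that leave out 1 library of 0 h each, split into rows higher (red) and lower (blue) in hsfa1abd-2. The total is 346 with all libraries and 74 without mutant replicate 2.

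The rows that differed most came from eligible calls with at least 5 CPM in a genotype and replicates that do not overlap, 66 higher and 262 lower. Among the higher ones row 6181 led. It had 116, 60.9 and 76.6 CPM in the mutant replicates at 0 h, against 0, 4.09 and 2.44 CPM in the WT replicates. The lowest mutant library was thus far above the highest WT library, and the log2 fold was 5.22 (SE 1.19, adjusted p = 0.0257). The call was lost without any 1 of the 6 libraries, at adjusted p = 0.0612 to 0.120, with log2 folds of 4.72 to 5.99.

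Row 6861 behaved alike, at 35.2, 15.7 and 45.4 CPM in the mutant and 0.282, 2.30 and 0 CPM in WT at 0 h. Its log2 fold was 5.16 (SE 0.98, adjusted p = 0.00984), and the call was lost without WT replicate 3 (4.55, adjusted p = 0.0654). With 1 library of 0 h left out the log2 fold lay between 4.55 and 7.60, the highest without WT replicate 2. Both rows were above WT in the mutant libraries at all later times. In the mutant, row 6861 averaged 97.3 ± 42.6, 64.5 ± 37.7, 52.4 ± 30.3 and 7.18 ± 2.63 CPM at 0.5, 1, 3 and 24 h (SD, n = 3). In WT it averaged 7.51 ± 7.32, 0, 0.761 ± 0.660 and 0.172 ± 0.149 CPM at the same times (SD, n = 3). It was called higher at each of these times (adjusted p = 0.00277, 0.000378, 0.00112 and 0.0390 by edgeR). At 1 h it had 598 counts in the mutant and 0 in WT over 3 libraries each. The lower 95% counting limit of the ratio was 170.9, and a floor of 3 counts over the WT group gave 211. At 24 h the counts were 89 and 2, a ratio of 40.6 with a 95% counting interval of 10.9 to 340.2.

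Row 6181 averaged 234 ± 110 CPM in the mutant and 34.7 ± 51.4 CPM in WT at 0.5 h (SD, n = 3), with WT replicate 2 at 93.9 CPM, and was not called there (adjusted p = 0.107). At 1, 3 and 24 h its log2 folds were 6.29, 7.57 and 5.63 (adjusted p = 0.00614, 0.00254 and 0.0148). Its mutant replicates were 33.5, 171 and 337 CPM at 3 h, so the spread within the mutant was wide while no mutant library overlapped WT.

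Among the lower rows, row 27441 was low in the mutant at every time. At 0 h it had 0.828, 0.534 and 1.34 CPM in the mutant and 20.8, 19.7 and 21.5 CPM in WT, a log2 fold of -4.48 (SE 0.32, adjusted p = 7.24e-11). The call held without each of the 6 libraries in turn, with log2 folds of -4.78 to -4.22. Later means in the mutant were 1.07 ± 0.405, 0.953 ± 0.274, 1.00 ± 0.771 and 1.61 ± 0.0950 CPM at 0.5, 1, 3 and 24 h (SD, n = 3). Those in WT were 22.1 ± 3.62, 14.7 ± 5.46, 17.9 ± 2.03 and 13.0 ± 0.975 CPM (SD, n = 3). The difference was called at all 4 later times, between -4.28 at 0.5 h (adjusted p = 5.28e-11) and -2.98 at 24 h (adjusted p = 7.74e-08). Its change from 0 h did not pass the test of a difference between genotypes at any time (adjusted p = 0.126 to 0.991).

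Row 33762 was low in both genotypes at 0 h. It had 0.414, 0 and 0.269 CPM in the mutant and 9.29, 1.79 and 6.35 CPM in WT at 0 h, or 3 and 66 counts. The WT level was 23.4 times that of the mutant, with a 95% counting interval of 7.67 to 116.4, and the call (log2 fold -4.37, SE 0.95, adjusted p = 0.0182) was lost without 5 of the 6 libraries in turn (adjusted p = 0.0526 to 0.119). Means of 0.762 ± 0.550 CPM in the mutant and 50.0 ± 10.8 CPM in WT followed at 0.5 h, and 20.1 ± 7.38 CPM in the mutant and 133 ± 26.8 CPM in WT at 3 h (SD, n = 3). The log2 folds at 0.5, 1, 3 and 24 h were -5.92, -3.77, -2.73 and -2.87, each called (adjusted p = 3.52e-07, 1.90e-05, 5.20e-06 and 0.000142). Within a genotype, the rise over 0 h was called at 3 h in both (adjusted p = 2.64e-07 in the mutant and 3.54e-10 in WT), and at 0.5 h in WT (adjusted p = 1.60e-06), where the mutant gave adjusted p = 0.533. The difference between these changes was not called at any time (adjusted p = 0.610 to 0.961), and replicates of the genotypes did not overlap. With limma-voom the calls at 0 h of rows 6181, 6861 and 33762 were lost (adjusted p = 0.170, 0.0861 and 0.110), with log2 folds of 6.07, 5.91 and -3.95.

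**Figure D3:**
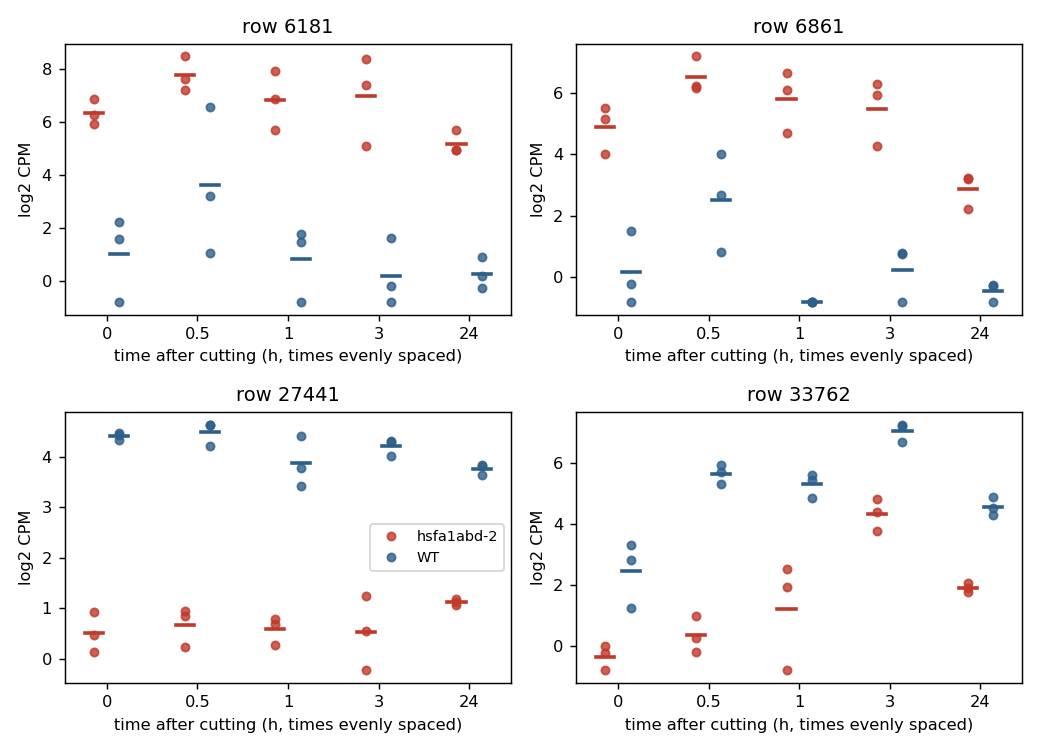
Log2 CPM (prior count 2) of rows 6181, 6861, 27441 and 33762 in each library at 0, 0.5, 1, 3 and 24 h, with hsfa1abd-2 in red left of WT in blue and a bar at each group mean. Rows 6181 and 6861 are high in the mutant at all times, row 27441 is low in the mutant at all times, and row 33762 is highest at 3 h in both genotypes.

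The genotype differences of 0 h were in part still present in the libraries of later times, which took no part in choosing the rows but share the model and its estimate of the spread. Of the 268 rows lower at 0 h, 99, 101, 49 and 90 were called lower again at 0.5, 1, 3 and 24 h, or 36.9%, 37.7%, 18.3% and 33.6%. Among all tested rows 2.13%, 2.97%, 0.955% and 10.3% were called lower at these times. Of the 78 rows higher at 0 h, 35, 43, 20 and 30 were called higher again, or 44.9%, 55.1%, 25.6% and 38.5%, against 1.54%, 3.06%, 1.04% and 10.6% of all tested rows. Leaving out single later libraries moved these shares, for example that of lower rows at 0.5 h to 16.9% without WT 0.5 h replicate 2 and 24.6% without the shallow WT 0.5 h replicate 1, which held 578179 counts. Of the core of 39 lower rows 33, 31, 27 and 30 were called lower again, and of the 9 higher core rows 8, 7, 4 and 3 were called higher again.

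Over the full lists the median difference was smaller at the later times. For the 40 rows at least 2-fold lower it changed little, with median log2 folds of -1.24 at 0 h and -1.18, -1.22, -1.15 and -1.29 later. Their mean difference in log2 CPM was -1.58 at 0 h and -2.06 at 0.5 h. For the 45 rows at least 2-fold higher the median log2 fold was 2.07 at 0 h and 1.44, 1.19, 0.48 and 0.98 later. The median log2 fold of the lower rows was -0.62 at 0 h, where it chose them, and -0.40, -0.40, -0.12 and -0.25 at 0.5, 1, 3 and 24 h. That of the higher rows was 1.099 at 0 h and 0.80, 0.74, 0.33 and 0.39 later, and over all tested rows the median lay between -0.06 and 0.01 at each time. A row picked for a large difference in 6 libraries tends to show a smaller one in others, and its part in the step from 0 to 0.5 h was not tested. The sign was the same as at 0 h in 95.1%, 93.9%, 72.8% and 76.3% of the 346 rows, and in 64.6%, 65.4%, 58.1% and 62.5% of all tested rows. Across the 346 rows the log2 folds of 0 h correlated with those at 0.5, 1, 3 and 24 h at r = 0.881, 0.853, 0.781 and 0.771, a description over rows that share libraries and are not independent. These rows were picked at both ends of the log2 folds of 0 h, which favours a high r. Over all tested rows r was 0.483, 0.481, 0.386 and 0.373.

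**Figure D4:**
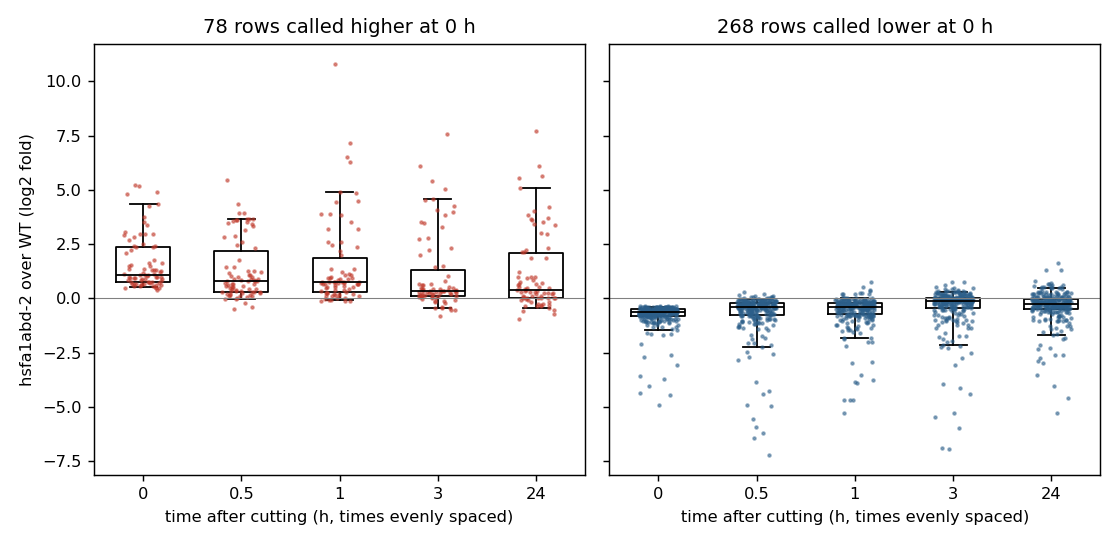
Log2 fold of hsfa1abd-2 over WT (vertical axis) at 0, 0.5, 1, 3 and 24 h for the 78 rows called higher (left) and the 268 called lower (right) at 0 h, 1 point per row. Boxes give the median and quartiles and whiskers the 5th and 95th percentiles; at 3 h the medians are 0.33 and -0.12.

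Rows differed in how often they were called again. Of the 268 lower rows, 40 were called lower at all 4 later times as well, 112 at none, 66 at 1, 37 at 2 and 13 at 3 of them. Of the rows called at all later times, 20 came from the 40 that were at least 2-fold lower at 0 h and 20 from the 228 with smaller differences, a split that was not tested. Of the 78 higher rows, 11 were called higher at all later times, and all 11 were at least 2-fold higher at 0 h, while 26 were called at none. In the opposite direction, 11 of the 268 lower rows were called higher at some later time, 10 of them at 24 h (3.73%, against 10.6% of all tested rows). Of the 78 higher rows 4 were called lower, all at 24 h (5.13%, against 10.3%). For all tested rows, the shares called at none, some or all of the 4 later times were not computed. The counts of repeated calls therefore only describe the lists.

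The 40 rows lower at all 5 times had a mean level that varied more over time in WT than in the mutant. Their mean level in the mutant was 4.66 ± 0.0458, 4.76 ± 0.0953, 4.81 ± 0.0744, 4.90 ± 0.0576 and 4.51 ± 0.0245 log2 CPM at the 5 times in order (SD, n = 3). In WT it was 6.0005 ± 0.120, 6.99 ± 0.0837, 6.67 ± 0.0741, 7.03 ± 0.104 and 5.99 ± 0.0848 log2 CPM (SD, n = 3). No mutant library overlapped a WT library at any time. The 112 rows called lower at 0 h alone had mean differences (mutant minus WT, log2 CPM) of -0.27, -0.23, 0.02 and -0.02 at 0.5, 1, 3 and 24 h. Their libraries overlapped at 0.5, 3 and 24 h. At 1 h they did not, with 5.55 to 5.67 log2 CPM in the mutant and 5.81 to 5.91 in WT, so the absence of a call does not show that the difference had ended. These groups were chosen by the calls at these times, so the values describe them and carry no test.

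The 11 rows higher at all 5 times were at 3.52 ± 0.453 log2 CPM in the mutant and 0.580 ± 0.763 in WT at 0 h, and at 4.70 ± 0.477 in the mutant and 1.56 ± 0.374 in WT at 0.5 h (SD, n = 3). They moved together from library to library within the mutant. The deviations of a library from its group mean correlated between these rows at a median r of 0.789 over the 12 later mutant libraries and 0.205 over the 12 later WT libraries, against 0.0396 and 0.0756 for the 78 higher rows. In WT the 11 rows were near the floor, at 0.642, 0.566 and -0.138 log2 CPM at 1, 3 and 24 h. The part of counting error in the lower r of WT was not tested. Mutant 3 h replicate 1 was low, at 2.69 log2 CPM, against 4.24 and 4.42 in the other mutant 3 h libraries.

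**Figure D5:**
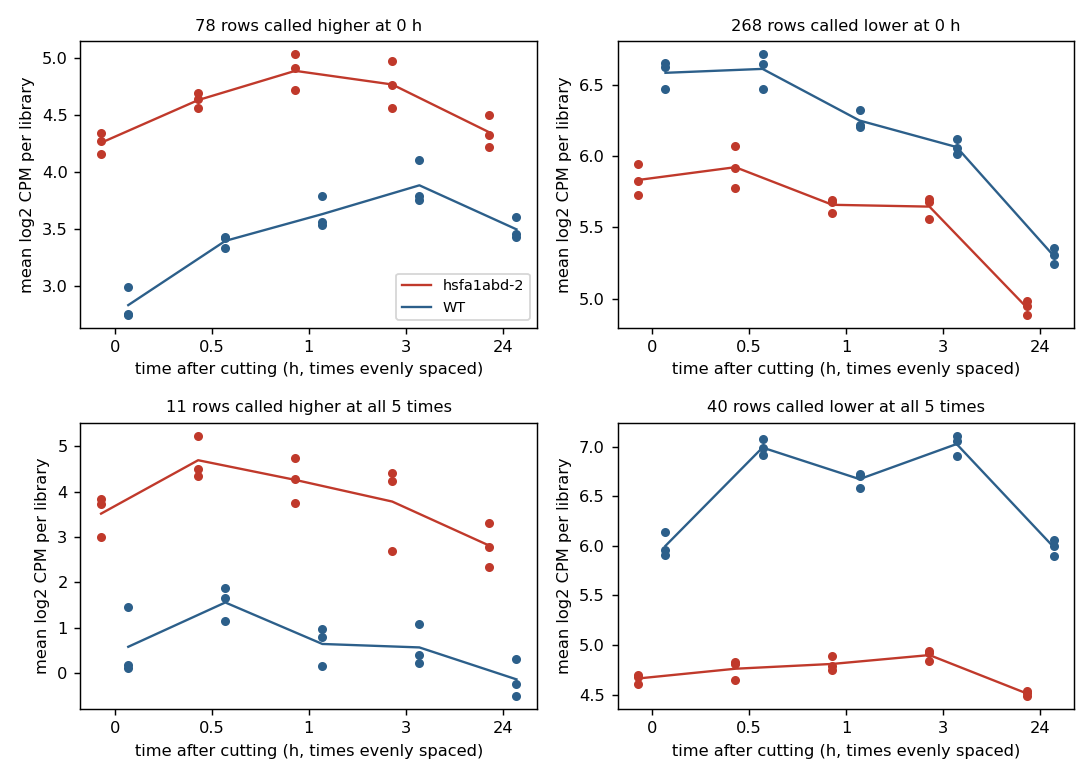
Mean log2 CPM per library (points) and per group (lines) over the 78 rows higher and 268 rows lower at 0 h (top) and the 11 rows higher and 40 rows lower at all 5 times (bottom), with hsfa1abd-2 in red left of WT in blue. In the bottom right panel the mutant lies at 4.66 at 0 h and 4.76 at 0.5 h, and WT at 6.0005 and 6.99.

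The rows lower in the mutant at 0 h were called falling more often than rising in both genotypes from 0.5 to 1 h and from 3 to 24 h, and from 1 to 3 h in WT but equally often each way in the mutant. These steps use no library of 0 h, so the choice of rows does not fix their direction. Between 0.5 and 1 h 93 of the 268 rows fell in the mutant and 109 in WT (34.7% and 40.7%), against 8.95% and 9.87% of all tested rows. Between 3 and 24 h 172 fell in the mutant and 180 in WT (64.2% and 67.2%), against 28.0% and 30.0% of all tested rows. Between 1 and 3 h the counts were 37 falls and 37 rises in the mutant, and 102 falls and 35 rises in WT. The falls of that step made up 13.8% in the mutant and 38.1% in WT, against 10.1% and 12.4% of all tested rows. Its rises were 13.8% in the mutant and 13.1% in WT, near the 12.8% and 15.7% of all tested rows. From 0.5 to 1 h 15 rows rose in the mutant and 11 in WT (5.60% and 4.10%), against 11.6% and 10.7%. From 3 to 24 h 28 rose in the mutant and 26 in WT (10.4% and 9.70%), against 24.9% and 25.9%. Medians of the log2 change from 3 to 24 h were -0.59 in the mutant and -0.62 in WT for these rows and -0.01 and -0.05 for all tested rows. The median level of the 268 rows over the later libraries was 62.3 CPM, against 18.9 CPM for all tested rows, and the part of this level in the number of falls was not tested.

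Among the 78 rows higher in the mutant at 0 h, 36 fell (46.2%) and 20 rose (25.6%) in the mutant between 3 and 24 h, against 28.0% and 24.9% of all tested rows. In WT 29 fell (37.2%) and 24 rose (30.8%), against 30.0% and 25.9%. Between 0.5 and 1 h 24 rose (30.8%) and 0 fell in the mutant, against 11.6% and 8.95% of all tested rows, in edgeR, the tool run on these steps. At an unadjusted p under 0.05 there were 27 rises and 6 falls. In WT 19 rose and 5 fell over that step, against 10.7% and 9.87%, and the difference between genotypes in these counts was not tested. Between 1 and 3 h 16 fell and 14 rose in the mutant, and 9 fell and 17 rose in WT. Falls of that step were 10.1% and 12.4% and rises 12.8% and 15.7% of all tested rows.

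Changes from 0 h rest on the libraries that chose the rows, which favours rises in the mutant and falls in WT for the lower rows. Against that direction, the 40 rows at least 2-fold lower at 0 h had fewer called rises by 0.5 h in the mutant than in WT. A called rise of at least 2-fold was found for 5 in the mutant (12.5%) and 14 in WT (35.0%), 4 of them in both. Of all tested rows 9.07% had such a called rise in the mutant and 9.33% in WT. The median level of the 40 rows at 0 h was 9.55 CPM in the mutant and 34.0 CPM in WT. A rise is harder to call at a lower level, and the part of this in the counts was not tested. In the 14 rows that rose in WT the median log2 change was 0.73 in the mutant and 2.48 in WT. These rows were picked by their rise in WT, which favours a larger change there. All tested rows picked in the same way had medians of 1.86 in the mutant and 2.14 in WT. The 228 lower rows with smaller differences did not show this contrast. Among them 11 had such a called rise in the mutant (4.82%) and 12 in WT (5.26%). In those 12 rows the median log2 change was 1.37 in the mutant and 1.57 in WT. The change itself was called lower in the mutant in 2 of the 40 rows at 0.5 h and in 5 at 3 h, against 0.081% and 0.221% of all tested rows. With the direction of the choice, the difference in change from 0 h was called positive for 38 of all 268 lower rows at 24 h, against 1.71% of all tested rows, and for 24 at 3 h, against 0.259%. At 1 h it was called positive for 1 row and negative for 3, against 0.0162% and 0.0432%. For 17 of the 78 higher rows it was called negative at 24 h, against 1.45% of all tested rows, and for 5 at 3 h, against 0.221%.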

How the data were processed

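Per the labels' protocols, RNA came from a Qiagen RNeasy kit and libraries from a Kapa stranded mRNA kit. fastp, STAR and the TAIR10 genome are named per the submitters' processing notes. Not given in the sources used here are their versions, the counter, the annotation and whether counting used strand. Whole-number raw counts per row and library were deposited by the authors, not normalized, in 36635 rows without identifiers. Reads of paralogs, overlapping genes and antisense partners may be split in ways not stated.

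All 30 libraries in 10 groups were fitted in 1 model with edgeR 4.0.16 (limma 3.58.1, R 4.3.3), with TMM scaling, filterByExpr (minimum count 10, minimum total 15), robust estimateDisp and glmQLFit, and glmQLFTest. The filter left 18526 rows with 99.8% of counts. P-values were adjusted by Benjamini-Hochberg over all tested rows within each contrast; a call is an adjusted p under 0.05. Log2 CPM used a prior count of 2. The SE of a log2 fold is approximate, its size divided by the square root of F. A fitted fold against a group near 0 counts is set partly by the prior count and gives no bound. P-values measure the spread between the replicates, which the labels call biological. Counting intervals and floors cover counting error only. Numbered rows were the 2 most positive and 2 most negative log2 folds among calls with at least 5 CPM in a genotype and replicates that do not overlap. No gene or marker list was used, since rows have no names. The comparison, the lists and the tests were chosen with earlier results of these data known. On counts simulated for the comparison at 0 h, with 18526 rows and 200 changed, the test recovered 83.6% of 4-fold, 73.2% of 2-fold and 25.7% of 1.5-fold changes. There were 6 false calls, 4.88% of the calls. Each count was drawn on its own, so differences that run through a whole library were not simulated. DESeq2 1.42.0, limma-voom, other scaling, filters and left-out libraries were tried as alternatives.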

Additional observations from a re-analysis of the deposited data

Results flagged for a closer look

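The change from 0 h differed between hsfa1abd-2 and WT, by edgeR's test of that difference, in some of the rows already called at 0 h. Among the 268 lower rows the change was called lower in the mutant for 7 at 0.5 h, for 3 at 1 h and for 11 at 3 h, against 0.081%, 0.0432% and 0.221% of all tested rows. It was called higher in the mutant for 1 of them at 1 h, 24 at 3 h and 38 at 24 h, against 0.0162%, 0.259% and 1.71%. Among the 78 higher rows the change was called lower in the mutant for 5 at 3 h and 17 at 24 h, against 0.221% and 1.45%, and higher for 1 at 24 h, against 1.71%. All of these tests use the 0 h libraries that chose the rows, so differences against the sign at 0 h are favoured by the choice.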

How the results depend on the processing

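With the replicate number as a replicate block, 332 rows were called at 0 h (74 higher, 258 lower), 312 of them among the 346. Deviations of same-numbered mutant and WT libraries correlated at -0.177 to -0.0251 at 0 h, 0.000412 to 0.349 at 0.5 h, -0.0793 to 0.0668 at 1 h, 0.0445 to 0.214 at 3 h and 0.0138 to 0.0742 at 24 h. At no time was every pair above 0.1, the level set for a pairing, so the numbers were not taken to pair the samples.

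With the 6 libraries alone 912 rows were called (436 higher, 476 lower), and 617 (320 and 297) with a replicate block added. DESeq2 called 516 (114 and 402), limma-voom 419 (79 and 340), and an adjusted p of 0.01 left 89 (16 and 73). Without row 22173 and its followers, left out after seeing the data, 172 lower rows were called. With 1 library of 0 h left out, the calls numbered 74 to 279 (higher 16 to 81, lower 44 to 198). With 1 library of a later time left out they numbered 232 to 462.

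The mean difference of the higher rows (mutant minus WT, log2 CPM) was also taken with 1 library of 0 h or of that time left out. It was 0.69 to 2.06 at 0.5 h, 0.60 to 1.97 at 1 h, 0.40 to 1.59 at 3 h and 0.35 to 1.53 at 24 h. For rows at least 2-fold higher it was 1.79, 1.84, 1.37 and 1.36. A prior count of 0.5 gave 1.39, 1.46 and 1.10037 at 0.5, 1 and 24 h, and no filter 1.12 at 0.5 h. For the lower rows it was -1.66 to -0.64, -1.39 to -0.57, -1.47 to -0.42 and -0.98 to -0.36 with 1 such library left out. For rows at least 2-fold lower it was -2.06, -1.65, -1.81 and -1.30. Without the followers the values were -0.75, -0.53 and -0.44 at 1, 3 and 24 h, with DESeq2's size factors -0.66 and without a filter -0.70 at 1 h.

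The share of higher rows called again was likewise taken with 1 library of 0 h or of that time left out. It was 18.5% to 81.1% at 0.5 h, 27.6% to 81.1% at 1 h, 11.1% to 54.1% at 3 h and 23.0% to 62.2% at 24 h. DESeq2 gave 32.5%, 41.2% and 12.3% at 0.5, 1 and 3 h, and rows at least 2-fold higher 57.8% at 0.5 h and 37.8% at 3 h. For lower rows the ranges were 16.9% to 84.1%, 22.6% to 79.5%, 16.3% to 63.6% and 26.9% to 70.5%. Rows at least 2-fold lower gave 72.5%, 70%, 55% and 65%. The value at 0.5 h was 24.6% without the shallow library. At 1 h it was 45.1% with DESeq2's size factors, 48.4% without a filter and 52.9% without the followers, and at 3 h 12.2% with DESeq2 and 23.8% without the followers. The cause was not tested, other than that each left-out library also changes which rows are chosen. No log2 fold of a numbered row and no mean difference changed sign, while the excess of lower over higher calls turned round with the 6 libraries alone and a replicate block. DESeq2 gave no adjusted p for row 27441. The last row inside the call at 0 h had an unadjusted p of 0.000926 (edgeR). A difference well above its SE could therefore still go uncalled. Under 10 CPM the median SE was 0.35 and the median size of the called log2 folds 1.58.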
